A study of Mus musculus with 8 samples.

Results

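The 10 genes of the AMH and Sertoli cell pathway described here were measured in granulosa cells of the neonatal mouse ovary. They were chosen by name from the supporting-cell genes that are shared with, or antagonistic to, the testis pathway. Of the 10, 8 had a row among the 11783 genes of the deposited table, and Dmrt1 and Nr0b1 had none. The granulosa cells came from dissociated ovaries of C57BL/6 mice at postnatal day 4 (PND4, 4 libraries) or postnatal day 1 (PND1, 4 libraries). No genotype, transgene or treatment is given for either age, and the labels do not tie libraries to animals or litters, so a p-value here reflects library-to-library spread that may be technical.

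Granulosa cells of the ovary and Sertoli cells of the testis arise from a common precursor and differ in which transcription factors hold their identity. In the fetal testis SOX9, backed by its relative SOX8 and by FGF9 acting through its receptor FGFR2, sets the Sertoli fate, and in the ovary WNT4, RSPO1 and FOXL2 oppose that route. Anti-Mullerian hormone (AMH), a secreted member of the TGF-beta family, is made early by Sertoli cells and, after birth, by granulosa cells of growing follicles, where in mice it restrains the recruitment of primordial follicles. It signals through its own type II receptor, AMHR2. PTGDS, a prostaglandin D synthase linked to SOX9 in the fetal testis, and clusterin (CLU), a secreted chaperone abundant in Sertoli cell secretions, also belong here. DMRT1, which maintains the male fate, and NR0B1, a nuclear receptor that restrains NR5A1, complete the group.

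NR5A1 activates Amh, and SOX9 acts with it in Sertoli cells, so promoter sequences were searched for AGGTCA, the core of the NR5A1 element, and for ACAAT, the core of the SOX element, on both strands. These motifs do not overlap each other. RefSeq promoters on GRCm38.p6, from 250 bases before to 50 after a start site, were found for 6 of the 10 genes. None was available for Amh, Clu, Sox9 or Dmrt1, so the Amh promoter itself was not searched. Of these 6, 2 held the NR5A1 letters (Amhr2 and Nr0b1) and 1 held the SOX letters (Fgfr2), while 16.3% and 31% of the 32851 mouse promoters of this length held them. The promoters of the receptor genes Amhr2 (chr15:102445117-102445416, plus strand) and Fgfr2 (chr7:130266759-130267058, minus strand) are shown because they carry a match, in capitals. That of Fgf9 (chr14:58072436-58072735, plus strand) is shown for the ligand whose libraries did not overlap between the ages, and that of Ptgds (chr2:25469700-25469999, minus strand) for the gene listed at 0 in the same libraries as Amh. Neither holds either set of letters.
Amhr2: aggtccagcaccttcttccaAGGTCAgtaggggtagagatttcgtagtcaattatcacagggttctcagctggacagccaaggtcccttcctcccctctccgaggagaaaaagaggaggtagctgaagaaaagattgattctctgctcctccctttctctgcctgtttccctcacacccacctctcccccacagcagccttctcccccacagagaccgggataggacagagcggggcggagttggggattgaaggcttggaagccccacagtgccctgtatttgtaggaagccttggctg
Fgfr2: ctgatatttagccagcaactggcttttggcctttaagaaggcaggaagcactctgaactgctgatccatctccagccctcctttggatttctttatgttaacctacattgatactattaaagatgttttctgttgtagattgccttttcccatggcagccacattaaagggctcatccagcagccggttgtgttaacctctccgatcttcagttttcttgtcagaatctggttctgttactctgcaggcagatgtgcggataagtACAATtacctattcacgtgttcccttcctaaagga
Fgf9: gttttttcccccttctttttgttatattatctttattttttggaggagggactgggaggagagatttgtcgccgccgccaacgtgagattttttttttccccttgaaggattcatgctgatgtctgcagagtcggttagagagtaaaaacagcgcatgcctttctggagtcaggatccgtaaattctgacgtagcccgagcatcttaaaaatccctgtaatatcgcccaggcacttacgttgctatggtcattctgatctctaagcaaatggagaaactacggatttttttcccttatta
Ptgds: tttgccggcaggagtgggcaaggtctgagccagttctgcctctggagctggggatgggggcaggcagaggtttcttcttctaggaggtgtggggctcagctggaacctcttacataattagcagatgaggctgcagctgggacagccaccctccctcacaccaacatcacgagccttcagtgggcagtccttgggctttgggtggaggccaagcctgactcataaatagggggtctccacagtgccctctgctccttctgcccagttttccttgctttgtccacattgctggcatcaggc
A match is a description of the letters and not of a site in use.

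Expression was deposited as FPKM, a level scaled for transcript length and library size, and the listed values of a library summed to 443333 to 505035. The depth of sequencing is not given, and whole reads could not be recovered from the values. The libraries numbered 1 stood apart at both ages. PND4 replicate 1 had 1097 genes listed at 0 and PND1 replicate 1 had 1234, against 222 to 858 in the other 6 libraries. These libraries also held 9 and 20 genes listed at 0 that had at least 5 FPKM in every other library (0 to 3 such genes elsewhere). A listed 0 therefore need not mean that a gene was not expressed, and the cause of such zeros was not tested. Of the 15 granulosa markers, 13 had a row, with summed FPKM of 1032 to 1304 at PND4 and 1015 to 1369 at PND1, and the FSH receptor gene Fshr and the oestrogen receptor gene Esr2 had none. Most of each sum came from the keratin genes Krt18 (means of 487 FPKM at PND4 and 500 at PND1) and Krt8 (355 and 390 in the same order). The sum therefore mainly follows these keratins.

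Over the group as a whole, clusterin and Fgf9 had lower values in every PND4 library than in any PND1 library, and Amh was above 1 FPKM in PND4 libraries alone. No member passed the test over all genes. Levels were compared as log2(FPKM + 1) with limma, and 7 members reached at least 1 FPKM in at least 4 libraries, as did 10756 genes in all. With Benjamini-Hochberg adjustment over all of them, 0 of the 7 members were called, while 0% of tested genes were called higher and 0.0093% lower at PND4. At an unadjusted p under 0.05 stood 1 member with higher values (Ptgds, background 4.06%) and 2 with lower values (Clu and Fgf9, background 1.84%). That split depended on the scaling. Of all tested genes, 437 were higher and 198 lower at PND4 at this unadjusted p, against 241 and 321 with median-of-ratios scaling and 221 and 322 with upper-quartile scaling. With these scalings Fgfr2 joined the members with lower values (limma unadjusted p = 0.0239 with median-of-ratios and 0.0325 with upper-quartile scaling), and Ptgds had an unadjusted p of 0.0480 and 0.0509 in the same order. Ptgds reached 1 FPKM in only 4 libraries, PND4 replicates 2 to 4 and PND1 replicate 4. Its place among the tested genes thus rested mainly on the age at which it was higher. The median log2 difference of the 7 was -0.32, and that of all tested genes 0.078. Per length, Clu was the most abundant member, with a mean above 97.9% of all rows, followed by Fgfr2 (above 77.1%) and Amhr2 (above 67.9%). Ptgds, Fgf9 and Sox9 lay above 24.4%, 22.7% and 21.1% of rows, and Sox8 and Amh above 11.6% and 11.4%. Clu exceeded Fgfr2 in 8 of 8 libraries, and Fgfr2 exceeded Amhr2 in 7 of 8. Ptgds exceeded Fgf9 in 3 of 8 libraries and Fgf9 exceeded Sox9 in 5 of 8, so the order of these 3 was not set beyond their spread.

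**Figure D1:**
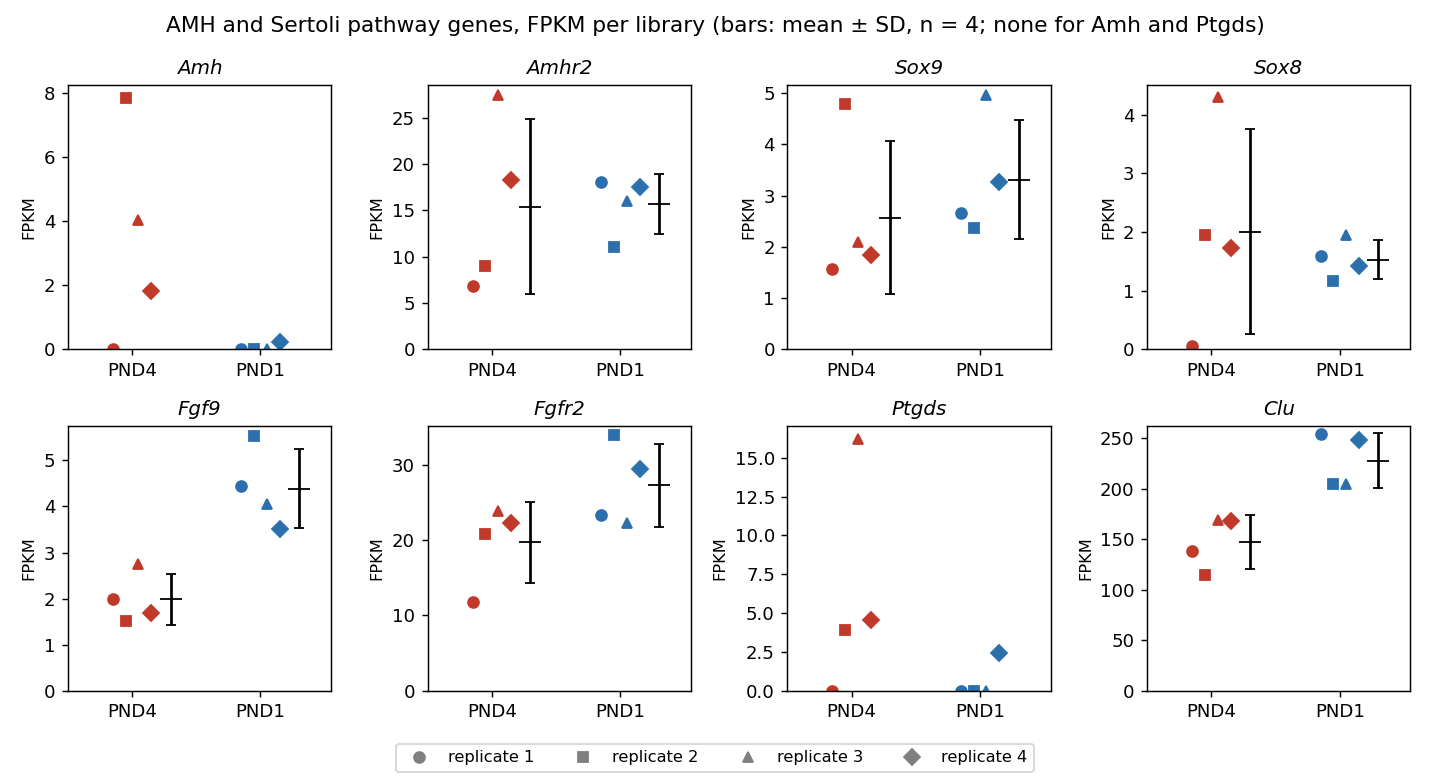
FPKM of the 8 listed members in each library, PND4 on the left and PND1 on the right of each panel, with the replicate number as the symbol and mean ± SD (n = 4) as a bar, left out for Amh and Ptgds because of libraries listed at 0. The PND4 and PND1 libraries do not overlap for Clu and Fgf9, and for Amh only PND4 replicates 2 to 4 lie above 1 FPKM.

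Amh (ENSMUSG00000035262, chromosome 10 from 80805243 to 80807648, plus strand, GRCm38) was listed at 0, 7.87, 4.04 and 1.81 FPKM in PND4 replicates 1 to 4, against 0, 0, 0 and 0.239 FPKM in PND1 replicates 1 to 4. It was thus above every PND1 library in 3 of 4 PND4 libraries and at 0 in the fourth, PND4 replicate 1, which is a library that stood apart. Only 3 libraries reached 1 FPKM, so the filter on low values left Amh out of the fit over all genes. In an exact two-sided permutation of its log2(FPKM + 1) values over the 70 assignments of libraries to ages, the mean difference of 1.67 had p = 0.143, where 0.0286 is the smallest p possible. Without PND4 replicate 1 the mean difference was 2.25 (exact permutation p = 0.0286, the smallest possible), and without both libraries numbered 1 it was 2.22 (exact permutation p = 0.1, the smallest possible). Each of these left out the only PND4 library with Amh at 0, after which every PND4 value lay above every PND1 value. These p-values therefore add no support. With any other single library left out the exact permutation p stayed at 0.143. With no filter on low values the limma difference was 1.67 (95% interval 0.29 to 3.04, unadjusted p = 0.0219, adjusted p = 0.836). The mean difference was 3.55 with a pseudocount of 0.1 and 0.65 with a pseudocount of 5. The authors' deposited table gave Amh a PND1 over PND4 ratio of 0.382 with a p-value of 0.0679 and a q-value of 0.742.

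Amhr2 (ENSMUSG00000023047, chromosome 15 from 102445367 to 102454633, plus strand), which encodes the AMH receptor, was expressed in all 8 libraries. It stood at 6.85, 8.99, 27.5 and 18.3 FPKM in PND4 replicates 1 to 4, and at 18.1, 11.03, 16.04 and 17.6 FPKM in PND1 replicates 1 to 4. The PND4 libraries lay on either side of the PND1 ones. Their means were 15.4 ± 9.46 FPKM at PND4 and 15.7 ± 3.23 FPKM at PND1 (SD, n = 4 each), with a log2 difference of -0.19 (95% interval -1.003 to 0.62, limma adjusted p = 0.937). Without PND4 replicate 1 the difference was 0.10, so its sign rested on that library. The receptor was therefore listed at 6.85 FPKM or more in the 4 libraries in which Amh itself was listed at 0.

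The rest of the AMH signalling route was read from 12 genes, of which 10 had a row and were tested. None was called (0 of 10 by limma after adjustment, and 0 at an unadjusted p under 0.05), with 6 positive and 4 negative differences and a median of 0.067, near that of all genes. Bmpr1a, a type I receptor used by AMH, averaged 48.8 ± 4.39 FPKM at PND4 and 51.2 ± 2.01 FPKM at PND1, and exceeded Amhr2 by a ratio of 1.84 to 6.17 in the PND4 libraries and 2.75 to 4.60 in the PND1 libraries. Acvr1, another type I receptor, averaged 3.37 ± 1.88 and 6.48 ± 3.18 FPKM at PND4 and PND1 and lay below Amhr2 in all 8 libraries. The most abundant of the list were the SMAD target genes Id3 (118 ± 14.8 FPKM at PND4 and 105 ± 13.8 FPKM at PND1), Id1 (58.5 ± 13.9 and 64.1 ± 6.57 FPKM in the same order of ages) and Id2 (58.0 ± 10.8 FPKM at PND4 and 45.2 ± 15.6 FPKM at PND1). The BMP type I receptor gene Bmpr1b and the SMAD gene Smad9 had no row. These SMADs and ID genes also serve other BMP ligands.

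Factors that act on the Amh promoter in other settings were present at both ages. Of 8 such regulators 7 had a row and were tested, and 0 were called by limma (0 at an unadjusted p under 0.05), with a median log2 difference of 0.042. The zinc-finger factor gene Gata4 averaged 64.4 ± 20.7 FPKM at PND4 and 71.0 ± 31.0 FPKM at PND1. Wt1, a supporting-cell factor, averaged 33.6 ± 16.8 and 30.9 ± 7.76 FPKM, and Foxl2, which maintains granulosa identity, 17.5 ± 5.85 and 15.9 ± 3.87 FPKM, at PND4 and PND1. The nuclear receptor gene Nr5a1 averaged 17.01 ± 2.99 FPKM at PND4 and 15.2 ± 2.47 FPKM at PND1.

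Sox9 (ENSMUSG00000000567, chromosome 11 from 112782224 to 112787760, plus strand) was low but listed above 1 FPKM in every library. It stood at 1.57, 4.79, 2.09 and 1.84 FPKM in PND4 replicates 1 to 4, and at 2.65, 2.37, 4.97 and 3.27 FPKM in PND1 replicates 1 to 4. The ages overlapped, since PND4 replicate 2 was above 3 of the 4 PND1 libraries. Means were 2.57 ± 1.49 FPKM at PND4 and 3.31 ± 1.16 FPKM at PND1 (SD, n = 4 each), and the log2 difference was -0.32 (95% interval -1.15 to 0.52, limma adjusted p = 0.892). With 1 library left out the difference ranged from -0.57 without PND4 replicate 2 to -0.15 without PND1 replicate 3, and it was -0.18 without PND4 replicate 1 and -0.14 with a pseudocount of 5.

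Sox8 (ENSMUSG00000024176, chromosome 17 from 25565892 to 25570686, minus strand) stood at 0.0532, 1.95, 4.29 and 1.73 FPKM in PND4 replicates 1 to 4, and at 1.60, 1.16, 1.94 and 1.42 FPKM in PND1 replicates 1 to 4. The lowest and the highest of the 8 values were both PND4 libraries. Its log2 difference was 0.042 (95% interval -1.07 to 1.15, limma adjusted p = 0.990), and the sign turned with median-of-ratios scaling (-0.028) and with upper-quartile scaling (-0.013). The authors' deposited table put its log2 ratio of PND1 over PND4 at 0.17 with a q-value of 0.918, a direction opposite to that of the limma difference. Sox8 shares 329 of its 3118 exonic bases with the antisense gene 2810468N07Rik. Strand use in the counting is not stated, so reads in the shared bases cannot be assigned to either gene. Sox9 exceeded Sox8 in 7 of 8 libraries, the exception being PND4 replicate 3.

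The ovarian factor Foxl2 exceeded Sox9 in all 8 libraries. The ratio of Foxl2 to Sox9 was 16.6, 2.77, 7.32 and 8.37 in PND4 replicates 1 to 4, and 3.97, 8.16, 3.15 and 5.50 in PND1 replicates 1 to 4. The ages overlapped in this ratio, whose extremes were PND4 replicates 1 and 2. Foxl2 also exceeded Sox8 in 8 of 8 libraries, by a ratio of 3.56 to 493 at PND4 and 6.59 to 16.7 at PND1, the highest value coming from the near-zero Sox8 of PND4 replicate 1.

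**Figure D2:**
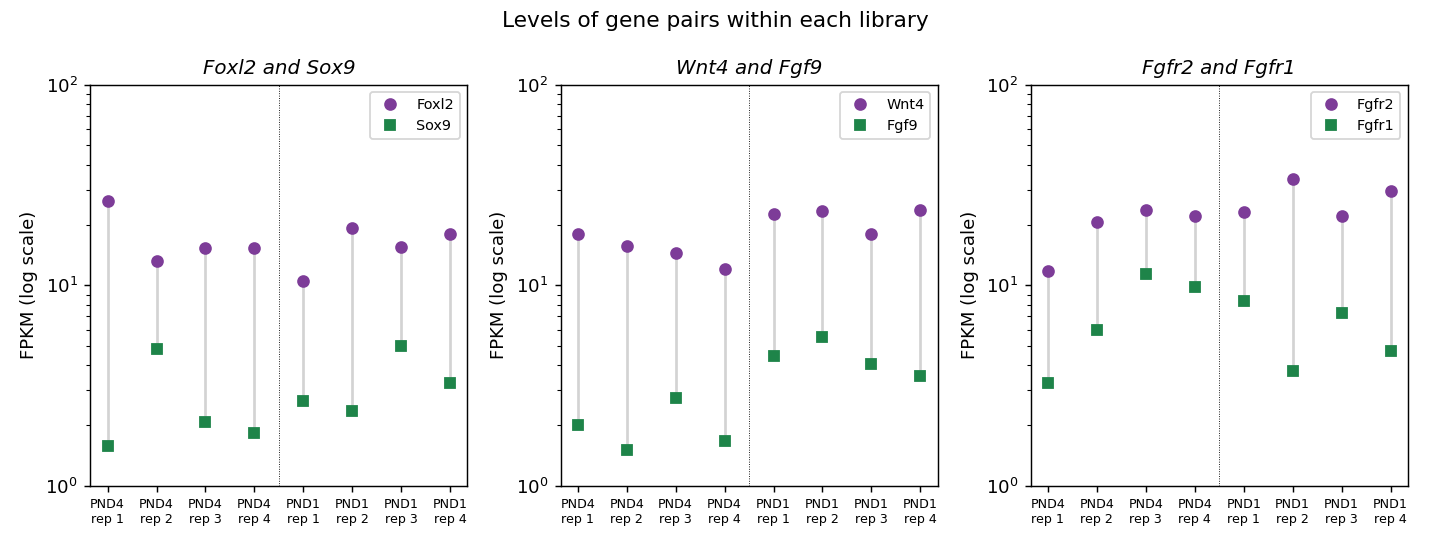
FPKM on a log scale in each library, PND4 replicates on the left and PND1 replicates on the right of each panel, for Foxl2 and Sox9, Wnt4 and Fgf9, and Fgfr2 and Fgfr1, with a grey line joining the pair within a library. The gene named before its partner is higher in all 8 libraries in each panel.

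Fgf9 (ENSMUSG00000021974, chromosome 14 from 58070547 to 58112720, plus strand), the ligand that sustains Sox9 in the fetal testis, had lower values at PND4. It stood at 2.00, 1.50, 2.74 and 1.68 FPKM in PND4 replicates 1 to 4, and at 4.44, 5.54, 4.06 and 3.52 FPKM in PND1 replicates 1 to 4. Every PND4 library was below every PND1 library, as were those of 1.08% of tested genes, while those of 3.16% lay above every PND1 library. Among the members, 2 were wholly lower (Fgf9 and Clu) and 0 wholly higher. The means were 1.98 ± 0.546 FPKM at PND4 and 4.39 ± 0.854 FPKM at PND1 (SD, n = 4 each), with a log2 difference of -0.86 (95% interval -1.55 to -0.16). Adjusted over all genes it did not pass (limma, unadjusted p = 0.0199, adjusted p = 0.788). The exact two-sided permutation gave p = 0.0286, the smallest possible, which 4.24% of tested genes had as well, and 0.0571 without PND1 replicate 2. With any 1 library left out the log2 difference stayed between -0.97 and -0.76, and it was -1.12 with a pseudocount of 0.1 and -0.43 with a pseudocount of 5.

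Fgfr2 (ENSMUSG00000030849, chromosome 7 from 130162451 to 133123350, minus strand), the receptor through which FGF9 acts, stood at 11.8, 20.8, 23.9 and 22.2 FPKM in PND4 replicates 1 to 4, and at 23.3, 34.0, 22.3 and 29.5 FPKM in PND1 replicates 1 to 4. PND4 replicate 3 alone was above any PND1 library, and the other PND4 libraries were below all 4. Means were 19.7 ± 5.41 FPKM at PND4 and 27.2 ± 5.51 FPKM at PND1 (SD, n = 4 each), and the log2 difference of -0.48 (95% interval -0.99 to 0.039, limma adjusted p = 0.805) was -0.26 without PND4 replicate 1. The span given covers all 27 annotated transcripts, and the promoter shown above lies inside it. Fgfr2 shares 314 of its 10328 exonic bases with Ctbp2, a transcriptional corepressor gene on the same strand, which was listed in the table as well. Fgfr2 exceeded Fgfr1, the other listed receptor, in all 8 libraries, by a ratio of 2.10 to 3.61 at PND4 and 2.80 to 9.14 at PND1.

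Of 16 genes for FGF receptors, ligands and their response, 13 had a row and were tested, and 0 were called by limma. At an unadjusted p under 0.05 stood 1, Fgf9 (lower at PND4, background 1.84%). Differences were positive for 8 and negative for 5, with a median of 0.068. The feedback phosphatase gene Dusp6 averaged 66.4 ± 12.6 FPKM at PND4 and 82.9 ± 10.7 FPKM at PND1, and the feedback inhibitor gene Spry2 45.4 ± 5.33 and 38.4 ± 6.64 FPKM at PND4 and PND1. The receptor genes Fgfr3 and Fgfr4 and the ligand gene Fgf20 had no row.

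Wnt4, the ovarian signal that FGF9 opposes, also had lower values in every PND4 library than in any PND1 library, as did 1.08% of tested genes. It averaged 15.06 ± 2.43 FPKM at PND4 and 22.0 ± 2.71 FPKM at PND1, with a log2 difference of -0.52 that did not pass (limma, unadjusted p = 0.0143, adjusted p = 0.743). The ratio of Wnt4 to Fgf9 was above 1 in all 8 libraries, from 5.30 to 10.4 at PND4 and from 4.24 to 6.74 at PND1. In the ovarian list 15 of 16 genes were tested and 0 called by limma, with a median of 0.088. At an unadjusted p under 0.05, 3 had higher values at PND4 (Rspo1, Esr1 and Nr5a2, background 4.06%) and 1 lower (Wnt4, background 1.84%). The most abundant, the beta-catenin gene Ctnnb1, averaged 93.9 ± 28.7 FPKM at PND4 and 89.6 ± 31.2 FPKM at PND1. Chosen after its values were seen, Rspo1, the secreted activator of this route, averaged 9.35 ± 2.89 FPKM at PND4 and 5.86 ± 0.643 FPKM at PND1. Its libraries did not overlap either, as with the 3.16% of tested genes wholly higher at PND4, and it did not pass (limma adjusted p = 0.805). Esr1 was wholly higher as well, with 4.86 ± 1.18 FPKM at PND4 and 2.23 ± 1.26 FPKM at PND1 (limma adjusted p = 0.805).

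Ptgds (ENSMUSG00000015090, chromosome 2 from 25466709 to 25470046, minus strand) had its highest values at PND4. It was listed at 0, 3.92, 16.2 and 4.55 FPKM in PND4 replicates 1 to 4, against 0, 0, 0 and 2.45 FPKM in PND1 replicates 1 to 4. The 4 libraries at 0 were the same as for Amh, and the only PND1 library with a value was replicate 4 for both genes. The log2 difference was 1.77 (95% interval 0.039 to 3.51) and did not pass (limma, unadjusted p = 0.0458, adjusted p = 0.805, exact two-sided permutation p = 0.143). It was 1.14 without PND4 replicate 3 and 2.51 without PND4 replicate 1 (limma adjusted p = 0.522, exact permutation p = 0.0571), and 3.39 with a pseudocount of 0.1 and 0.82 with a pseudocount of 5. PND4 replicate 1 was the only PND4 library with Ptgds at 0, so leaving it out adds no support. Of 11 genes of prostaglandin synthesis and transport 8 had a row, 7 were tested and 0 called by limma, with a median of 0.17. At an unadjusted p under 0.05, 2 were higher (background 4.06%) and 1 lower (background 1.84%) at PND4. Ptgs2, the inducible cyclooxygenase gene, averaged 39.9 ± 12.6 FPKM at PND4 and 37.4 ± 10.4 FPKM at PND1, and the phospholipase gene Pla2g4a 25.3 ± 3.50 and 23.04 ± 6.45 FPKM at PND4 and PND1. Ptges3 averaged 159 ± 29.1 FPKM at PND4 and 130 ± 5.77 FPKM at PND1. The receptor genes for prostaglandin D2, Ptgdr and Ptgdr2, and the other synthase gene, Hpgds, had no row. Chosen after their values were seen, the prostaglandin E synthase gene Ptges averaged 6.66 ± 1.26 FPKM at PND4 and 2.81 ± 0.823 FPKM at PND1 (limma adjusted p = 0.740), and the transporter gene Slco2a1 6.59 ± 1.56 FPKM at PND4 and 12.3 ± 3.39 FPKM at PND1 (limma adjusted p = 0.740).

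Clu (ENSMUSG00000022037, chromosome 14 from 65968483 to 65981547, plus strand) had the smallest limma p of the members. It stood at 138, 114, 169 and 168 FPKM in PND4 replicates 1 to 4, and at 254, 205, 204 and 248 FPKM in PND1 replicates 1 to 4. Every PND4 library was below every PND1 library, as were those of 1.08% of tested genes. The log2 difference was -0.64 (95% interval -0.95 to -0.32) and did not pass over all genes (limma, unadjusted p = 0.00106, adjusted p = 0.556), and the exact two-sided permutation gave the smallest possible p, 0.0286. With any 1 library left out the difference stayed between -0.71 and -0.52, and without both libraries numbered 1 it was -0.56. The authors' deposited table gave Clu a PND1 over PND4 ratio of 1.56 with a p-value of 0.0158 and a q-value of 0.742. Its smallest p-value among the members was that of Fgf9 (ratio 1.77, p-value 0.00626, q-value 0.653). Of 7 genes for clusterin receptors and partners 5 were tested and 0 called by limma, with a median of 0.32. At an unadjusted p under 0.05, 1 was higher at PND4 (background 4.06%). The cell-death gene Bax averaged 46.0 ± 11.01 FPKM at PND4 and 36.1 ± 4.10 FPKM at PND1. The receptor gene Vldlr, chosen after its values were seen, averaged 4.21 ± 1.34 FPKM at PND4 and 1.10 ± 0.593 FPKM at PND1 (limma adjusted p = 0.740).

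**Figure D3:**
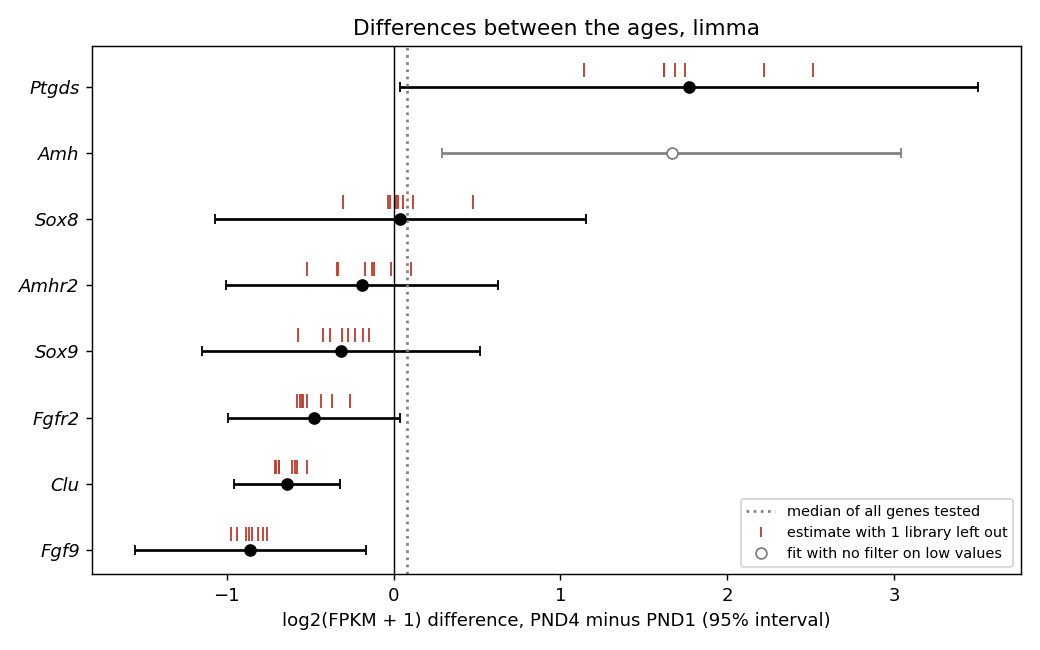
Differences in log2(FPKM + 1), PND4 minus PND1, with 95% intervals from limma for the 7 tested members (filled points) and for Amh from the fit with no filter on low values (open point). Red ticks are the estimates with 1 library left out, and the dotted line is the median of all tested genes, 0.078. The ticks of Clu, Fgf9, Fgfr2 and Sox9 stay below 0 and those of Ptgds above it, while those of Sox8 and Amhr2 fall on both sides.

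Further genes of the male route were read from lists of testis-determination and Sertoli differentiation genes. Of 24 testis-determination genes 16 had a row, and those without included Sry, Dmrt1 and Dhh. Of these 16, 15 were tested and 0 called by limma, with a median of 0.042. Fgf9 alone, lower at PND4, had an unadjusted p under 0.05 (background 1.84%). Of 21 Sertoli differentiation genes 10 had a row, and the 11 without one included Fshr, Cst9, Cldn11, Gdnf and Shbg. Of the 10, 7 were tested and 0 called by limma, with a median of 0.068. At an unadjusted p under 0.05, 1 was higher (Ptgds, background 4.06%) and 1 lower (Clu, background 1.84%) at PND4. Besides Clu the most abundant were the inhibin and activin subunit genes Inha (58.9 ± 16.1 FPKM at PND4 and 44.4 ± 16.4 FPKM at PND1) and Inhbb (17.5 ± 4.03 FPKM at PND4 and 12.5 ± 4.83 FPKM at PND1), which granulosa cells express as well. The lowest sum over the 8 libraries of any row in the table was 2.83 FPKM, and Dmrt1 and Nr0b1 are not analysed here further.

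PND4 replicate 1 was the lowest PND4 library for 6 of the 8 listed members, all but Clu and Fgf9, and for 46.6% of tested genes. Without both libraries numbered 1, 0 members were called by limma and the smallest possible exact p was 0.1. Summed markers of other cells are given beside the members, and only those of stroma and erythroid cells did not overlap between the ages. Summed oocyte markers (13 of 15 with a row) were 48.1, 76.7, 316 and 69.4 FPKM in PND4 replicates 1 to 4. In PND1 replicates 1 to 4 they were 64.5, 16.5, 120 and 72.9 FPKM. PND4 replicate 3 was thus the highest, as it was for Ptgds, Amhr2 and Sox8 but not for Amh. The largest parts of its oocyte sum were Padi6, Zp3 and Zp2 (83.3, 61.3 and 55.8 FPKM). The oocyte markers did not share a direction, with 7 positive and 6 negative log2 differences. Summed stroma markers (12 of 12) were 213.3 to 277 FPKM at PND4 and 193 to 210.5 FPKM at PND1, without overlap but by a narrow gap. Of the 12, 11 had positive log2 differences. The most abundant, Lox, went the other way, with means of 81.0 FPKM at PND4 and 90.1 FPKM at PND1. Erythroid markers (3 of 7) also did not overlap, with 0.268 to 11.4 FPKM at PND4 and 17.1 to 48.9 FPKM at PND1. Germ cell and meiosis markers (5 of 10) summed to 3.39 to 23.2 FPKM at PND4 and 7.27 to 20.5 FPKM at PND1, steroidogenic markers (2 of 7) to 2.33 to 6.26 FPKM at PND4 and 4.71 to 12.6 FPKM at PND1, and immune markers (5 of 8) to 2.92 to 68.0 FPKM at PND4 and 8.34 to 25.3 FPKM at PND1. Surface epithelium markers (7 of 8) summed to 574 to 736 FPKM at PND4 and 565 to 674 FPKM at PND1. The part of these cells in the members' differences was not tested. The steroidogenic genes Cyp11a1 and Cyp17a1, the leukocyte gene Ptprc and all 8 endothelial markers had no row. In bulk libraries fewer cells of a type and less RNA per cell cannot be told apart.

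**Figure D4:**
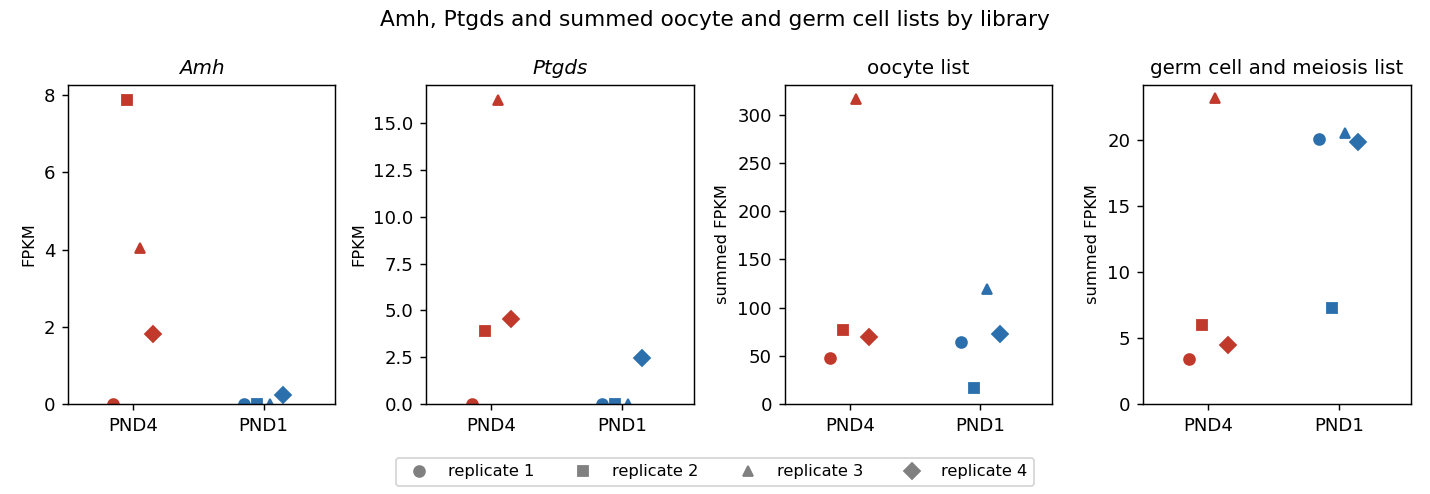
FPKM of Amh and Ptgds and summed FPKM of the oocyte and the germ cell and meiosis lists in each library, PND4 on the left and PND1 on the right of each panel, with the replicate number as the symbol. PND4 replicate 3 has the highest Ptgds value and oocyte sum (16.2 and 316 FPKM), while Amh is highest in PND4 replicate 2 (7.87 FPKM).

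The genes whose pattern over the 8 libraries was most like that of a member were taken among 9168 genes, as a description with no test. They share the libraries' scaling with it. For Amh they were Nme3 (Pearson r = 0.954 on the log2(FPKM + 1) scale), Kti12 (0.952) and Hs1bp3 (0.951). For Clu they were the IGF binding protein gene Igfbp4 (0.951), the oocyte factor gene Figla (0.930) and Inafm2 (0.927). For Fgfr2 they were the calcium channel subunit gene Cacnb3 (0.961), Armcx3 (0.960) and the nuclear receptor gene Esrra (0.959). Figla was listed at 0, 0, 1.25 and 0.263 FPKM in PND4 replicates 1 to 4 and at 7.99, 1.87, 2.07 and 3.89 FPKM in PND1 replicates 1 to 4.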

How the data were processed

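RNA of granulosa cells was sequenced in 4 libraries per age. Per the submitters' processing notes, Trim Galore trimmed the reads and HISAT2 aligned them to GRCm38. The authors deposited FPKM values per gene, per the file headers. No source used here states the program, annotation, strand use or filter behind them. A further table deposited by the authors holds, for each gene, a p-value, a q-value and a ratio with its log2. The values show that the ratio is PND1 over PND4, and no source used here states its test.

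Values were taken as log2(FPKM + 1), a scale that shrinks folds at low levels. The 10756 of 11783 genes that reached 1 FPKM in 4 or more libraries were compared as PND4 minus PND1 with limma 3.58.1 (R 4.3.3), with its trend option, Benjamini-Hochberg adjustment and a threshold of 0.05. The fit was tested on simulated data. Single members were also compared by exact two-sided permutation over 70 assignments. Low values of 2467 single-transcript genes lay within 0.1 of whole reads in at most 26.4% of cases (20% by chance), so depth is unknown. Positions came from GENCODE M21, in which 11770 of 11783 identifiers were found.

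Members and lists were chosen with earlier results of these data known. Every member was named, of each list described the most abundant genes, and for Amh and the 2 most abundant members the 3 genes most like them. Alternatives covered scaling, filter, pseudocount, the replicate block and leaving out each library. Leaving out both libraries numbered 1 was chosen after seeing the data. Figures were drawn with matplotlib 3.10.9.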

Additional observations from a re-analysis of the deposited data

Results flagged for a closer look

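Of 32 groups of 4 libraries (members and summed marker lists at each age), 7 held a library far from the other 3. The rule flags about 1 in 20 by chance where values are normally distributed. FPKM with values at 0 need not be, so the 7 are not read as an excess. Amh in PND1 replicate 4 (0.239 FPKM) and Ptgds in PND1 replicate 4 (2.45 FPKM) were the only PND1 libraries not listed at 0. With the other 3 at 0, any value above 0 would have been flagged for these genes. Sox9 was far above the other PND4 libraries in PND4 replicate 2 (4.79 FPKM). Oocyte markers summed to 316 FPKM, and germ cell and meiosis markers to 23.2 FPKM, in PND4 replicate 3, far above the other PND4 libraries. PND1 replicate 2 was far below the other PND1 libraries in summed granulosa markers (1015 FPKM) and in summed germ cell and meiosis markers (7.27 FPKM). That granulosa sum was mostly Krt18 and Krt8 (378 and 272 FPKM in this library), each lowest there among the PND1 libraries. Of the other granulosa markers, Foxl2, Kitl, Fst and Inha were highest there, Wt1, Amhr2 and Irx3 were lowest, and the rest lay between. The low sum was thus not shared by the granulosa markers as a whole.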

How the results depend on the processing

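Under all alternatives run, 0 genes were called higher and 1 lower at PND4, and 0 members were called. The stricter filter left 3 members tested. The 2 members at the smallest exact p became 1 without PND1 replicate 2 and 3 without PND4 replicate 1 (a range of 1 to 3 with any 1 library left out), and 0 without both libraries numbered 1, where 3 against 3 cannot go below 0.1. The member gained without PND4 replicate 1 was Amh, whose only PND4 value of 0 was in that library. The sign of Amhr2 turned without PND4 replicate 1 (0.10) and without both libraries numbered 1 (0.18), with values from -0.52 to 0.10 over the 8 libraries left out in turn. That of Sox8 turned with median-of-ratios scaling (-0.028), upper-quartile scaling (-0.013) and a pseudocount of 0.1 (-0.35), and without PND1 replicate 2 (-0.032), PND4 replicate 2 (-0.021) or PND4 replicate 3 (-0.30), with values from -0.30 to 0.47 over the 8 libraries left out in turn. The cause was not tested. The other 5 tested members kept their sign in every alternative. Adjusted p-values over the alternatives ran from 0.467 to 0.887 for Clu, from 0.653 to 0.895 for Fgf9 and from 0.519 to 0.909 for Ptgds.

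With the replicate block, 1 gene was called lower and 0 members were called. Deviations of same-numbered libraries from their age means correlated between -0.0088 and 0.12, so the numbers were not taken to pair the libraries. Read depth is unknown, which leaves values near 0, as for Amh, Ptgds and Sox8, without a counting error.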
